A study of Pseudotaxus chienii with 9 samples.

Results

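The genes described here are 35 of the 26827 genes of the table deposited for the yew-family conifer Pseudotaxus chienii. They were taken as every gene whose description is that of a putative epoxidase of Taxus baccata, the European yew, and whose identifier places it on chromosome 4. The description was carried by 63 genes in all, so 28 lay on other chromosomes. The rule itself reads a description and a chromosome, but the copies were chosen by someone who knew their levels and differences from CK in these same libraries. Those values are therefore given as a description, and nothing is supported with them.

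PolyA RNA of leaves was sequenced in 9 libraries, 3 for each of 3 groups: leaves treated with methyl jasmonate (MeJA, a plant hormone released on wounding) for 1 day, leaves treated with it for 2 days, and CK leaves, whose label names no treatment. The series title names the origin and evolution of taxane biosynthesis, so the question put to these genes is how the copies of one pathway gene compare under the hormone. Mock treatment and sampling time of CK leaves are not stated in the labels, and neither is whether each library was made from its own plant. A p-value here therefore reflects how far the libraries scatter, and that scatter may be technical.

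Taxanes are diterpenoids of yews, and paclitaxel, an anticancer drug, is the best known of them. Taxadiene synthase closes the linear precursor geranylgeranyl diphosphate into the taxane skeleton, cytochrome P450 enzymes then add oxygens, and acyltransferases add acyl groups. The oxetane ring of paclitaxel has long been proposed to form by way of an epoxide, and 2-oxoglutarate-dependent dioxygenases, soluble iron enzymes that also make and inactivate gibberellin hormones, are a family able to carry out such oxidations.

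The name of the copies was set against the other annotation columns of the table. Of the 35 copies, 33 carried a gene ontology term for dioxygenase activity, 2 carried one for oxidoreductase activity only, and 0 carried a cytochrome P450, heme or monooxygenase term. Orthology numbers placed 11 copies with the gibberellin dioxygenases that complete the active hormone and 10 with those that inactivate it. For 12 copies the number was that of GMP synthase, an enzyme of purine metabolism, which goes against the description. A further copy had a different number, and PchiChr4G117210 had none. The pathway column placed 21 copies in diterpenoid biosynthesis. The genes are therefore called epoxidase-named copies, and no activity is implied.

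Along chromosome 4 the copies fell into 7 runs, a run being copies of the same block of the deposited chromosome with no gap over 5 Mb between neighbours. In the table a position consists of chromosome, a further number, start and end, and the further number was read as a block of the chromosome. Nothing in the sources used here gives the genome build. Run 1 (block 1, 169226381 to 170038019) held PchiChr4G101230, PchiChr4G101240, PchiChr4G101250 and PchiChr4G101260, all on the plus strand. Run 2 was PchiChr4G106500 alone (block 1, 309387543 to 309389428). The other runs lay in block 1000000001.

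Run 3 held PchiChr4G117100 and PchiChr4G117210 (140418227 to 143723478). Run 4 held PchiChr4G117310, PchiChr4G117320 and PchiChr4G117330 (150489353 to 151015957), all on the plus strand. Run 5 held PchiChr4G117550, PchiChr4G117600, PchiChr4G117610, PchiChr4G117620 and PchiChr4G117650 (165174943 to 168292230). The longest row was run 6, with 12 copies from PchiChr4G117860 to PchiChr4G118050 (177646143 to 191059886), among them all 10 copies numbered as inactivating gibberellin dioxygenases. Run 7 held 8 copies from PchiChr4G122200 to PchiChr4G122270 (328765500 to 330742549), all on the minus strand. Of the 35 copies, 28 stood directly beside another copy in the deposited gene order. The annotated genes spanned 509 to 60289 bp with a median of 1513 bp, and 5 spanned more than 5 kb.

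Levels are given as FPKM, the authors' fragments per kilobase of gene scaled to library size, so that copies of different length can be compared. Total estimated counts were 48893949 to 58703021 per library, and 23194 to 24252 genes had a count. Libraries of a group stood apart from each other. MeJA 1 day library 2 and MeJA 2 days library 2 had summed levels of 10 green leaf genes (chlorophyll a/b binding proteins and the small subunit of Rubisco) of 488 and 386 FPKM, against 2046 to 3837 FPKM in the other MeJA libraries and 5330 to 7040 FPKM in CK libraries. Green leaf genes were thus expressed in every library, at unequal levels. Genes with reproductive and seed terms, given further below, summed to 3028 FPKM in MeJA 1 day library 2 and 1101 FPKM in MeJA 2 days library 2. They summed to 935 to 2615 FPKM in the other MeJA libraries and 396 to 574 FPKM in CK libraries. Such terms do not place a gene in a tissue, and the leaf label was not tested with them. In bulk tissue fewer cells of a type and less RNA per cell cannot be told apart, and the part of tissue makeup in the results below was not tested.

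The 35 copies together were most abundant in a single MeJA 2 days library. Their summed level was 626, 51.6 and 2870 FPKM in MeJA 1 day libraries 1, 2 and 3, 710, 13634 and 4788 FPKM in MeJA 2 days libraries 1, 2 and 3, and 39.7, 131 and 59.1 FPKM in CK libraries 1, 2 and 3. The 2 days libraries all lay above the CK libraries, while the 1 day libraries overlapped CK through library 2. Of that library's 51.6 FPKM, PchiChr4G117920 alone gave 42.0, and the other 34 copies summed to 9.54 FPKM, below each CK library. Runs 2 and 4 gave most of the sum in CK libraries 1 and 3. They had 10.6 and 25.9 FPKM in CK library 1 and 17.1 and 38.4 FPKM in CK library 3. In MeJA 1 day library 2 they had 7.19 and 0.210 FPKM, so this comparison rests largely on those runs for CK libraries 1 and 3. As a share of all counts the copies took 0.0885%, 0.00669% and 0.394% in the MeJA 1 day libraries, 0.10%, 1.82% and 0.649% in the MeJA 2 days libraries and 0.00774%, 0.0195% and 0.0116% in the CK libraries. The 95% Wilson interval, which covers counting error only, was 0.00647% to 0.00691% for the lowest of these shares and 1.82% to 1.83% for the highest.

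**Figure D1:**
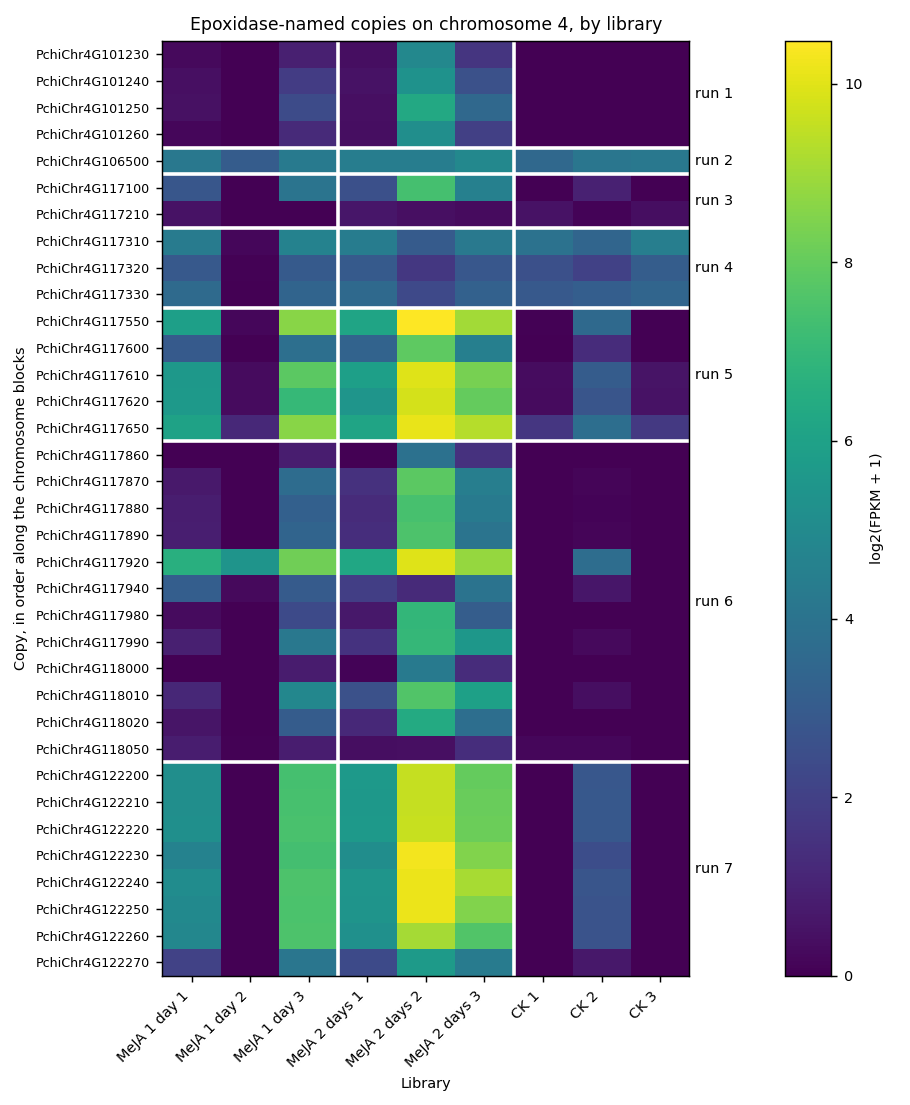
Level of each of the 35 epoxidase-named copies (rows, in chromosome order, white lines between runs) in each library (columns, MeJA 1 day, MeJA 2 days, then CK), as log2(FPKM + 1) on a colour scale. MeJA 2 days library 2 holds the highest value of 28 copies, MeJA 1 day library 2 and CK libraries 1 and 3 are near 0 for most rows, and runs 2 and 4 do not share this pattern.

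The same order of libraries recurred from copy to copy. The highest level of a copy was in MeJA 2 days library 2 for 28 of the 35. For 26 copies the full order was MeJA 2 days library 2, MeJA 2 days library 3, MeJA 1 day library 3, then library 1 of both MeJA groups, then CK library 2. CK libraries 1 and 3 had 0 counts for 25 copies, and 23 of those also had 0 counts in MeJA 1 day library 2. Of these 23 copies, 16 had counts in CK library 2. The number of copies at 0 was 2, 24 and 1 in the MeJA 1 day libraries, 1, 0 and 0 in the MeJA 2 days libraries and 25, 7 and 27 in the CK libraries.

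Levels of 1 FPKM or more were reached by 21, 3 and 30 copies in the MeJA 1 day libraries, by 26, 33 and 34 in the MeJA 2 days libraries and by 5, 17 and 5 in the CK libraries. Levels of 100 FPKM or more were reached by 12 copies in MeJA 1 day library 3 and by 20 and 12 copies in MeJA 2 days libraries 2 and 3. No copy reached 100 FPKM in any other library.

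Run 5 and run 7 gave most of this signal. Run 5 summed to 228, 1.89 and 1147 FPKM in the MeJA 1 day libraries, 247.5, 4662 and 1749 FPKM in the MeJA 2 days libraries and 2.68, 38.2 and 3.20 FPKM in the CK libraries. Run 7 summed to 226, 0 and 1247 FPKM in the MeJA 1 day libraries, 304, 6445 and 2283 FPKM in the MeJA 2 days libraries and 0, 40.7 and 0 FPKM in the CK libraries. Both runs were higher in every MeJA 2 days library than in any CK library, and both were lower in MeJA 1 day library 2 than in CK library 2. Run 6, with the most copies, summed to 110, 42.3 and 393 FPKM in the MeJA 1 day libraries, 92.6, 2141 and 652 FPKM in the MeJA 2 days libraries and 0.138, 13.8 and 0 FPKM in the CK libraries.

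**Figure D2:**
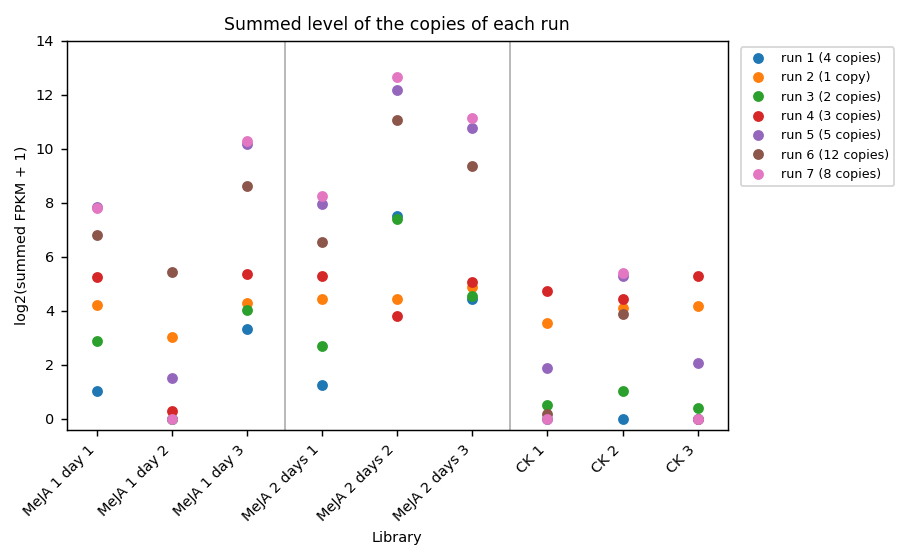
Summed level of the copies of each run (points, coloured by run) in each library, as log2(summed FPKM + 1), with MeJA 1 day, MeJA 2 days and CK libraries from left to right. Runs 1, 3, 5, 6 and 7 share the order of the libraries given in the text, which leaves out MeJA 1 day library 2, with MeJA 2 days library 2 highest. In MeJA 1 day library 2, run 6 lies above CK library 2 (42.3 against 13.8 FPKM), while runs 3, 5 and 7 lie below it. Run 2 stays between 7.19 and 28.5 FPKM, and run 4 is lowest in MeJA 1 day library 2, at 0.210 FPKM.

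Within run 5 the most abundant copy was PchiChr4G117550. It stood at 58.9, 0.136 and 387 FPKM in the MeJA 1 day libraries, 68.3, 1430 and 521 FPKM in the MeJA 2 days libraries and 0.0458, 11.1 and 0 FPKM in the CK libraries. PchiChr4G117650, at the far end of the run, stood at 65.6, 1.30 and 388 FPKM in the MeJA 1 day libraries, 68.1, 1109 and 628 FPKM in the MeJA 2 days libraries and 2.14, 12.6 and 2.30 FPKM in the CK libraries. The 2 days and CK libraries did not overlap for either copy, and the 1 day libraries overlapped CK through library 2 alone. The edgeR log2 fold changes of PchiChr4G117650 were 4.78 (SE 1.85) for MeJA 1 day against CK and 6.91 (SE 2.05) for MeJA 2 days against CK.

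PchiChr4G117610 and PchiChr4G117620 of run 5 followed the same order with 1005 and 883.5 FPKM in MeJA 2 days library 2, and PchiChr4G117600 was the least abundant of the run, with 235 FPKM there. PchiChr4G117600 had 0 FPKM in MeJA 1 day library 2 and in CK libraries 1 and 3.

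Run 7 held copies with nearly equal values. PchiChr4G122200, PchiChr4G122210 and PchiChr4G122220 differed from each other by a ratio of 1.03 to 1.08 between the highest and the lowest in each of the 6 libraries with counts. In MeJA 2 days library 2, for example, they lay between 746 and 776 FPKM. For the next 3 copies, PchiChr4G122230, PchiChr4G122240 and PchiChr4G122250, the same ratio was 1.09 to 1.54. The deposited counts are estimates, and no sequences were used here, so reads of near-identical copies may have been shared out between them and the value of a single copy is uncertain.

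PchiChr4G122240 stood at 33.0, 0 and 187 FPKM in the MeJA 1 day libraries, 43.8, 1162 and 549 FPKM in the MeJA 2 days libraries and 0, 5.78 and 0 FPKM in the CK libraries. At the other end of run 7, PchiChr4G122270 had the run's lowest values, with 3.25, 0 and 16.1 FPKM in the MeJA 1 day libraries, 4.17, 51.1 and 19.8 FPKM in the MeJA 2 days libraries and 0, 0.596 and 0 FPKM in the CK libraries. All 8 copies of the run had 0 FPKM in MeJA 1 day library 2 and in CK libraries 1 and 3. PchiChr4G122260 reached 542 FPKM in MeJA 2 days library 2.

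In run 6 a single copy stood far above its neighbours. PchiChr4G117920, the only copy of the run numbered with the dioxygenases that complete the active gibberellin, stood at 96.2, 42.0 and 297 FPKM in the MeJA 1 day libraries, 75.7, 990 and 449 FPKM in the MeJA 2 days libraries and 0, 12.3 and 0 FPKM in the CK libraries. It was the only 1 of the 35 copies whose 3 MeJA 1 day libraries all lay above every CK library. Over all tested genes, 13.5% met that description. Its edgeR log2 fold changes were 5.21 (SE 2.44) for MeJA 1 day and 7.13 (SE 2.66) for MeJA 2 days, each against CK.

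The other copies of run 6 rested largely on MeJA 2 days library 2. PchiChr4G117870, PchiChr4G117880 and PchiChr4G117890, neighbours on the plus strand, had 229, 174 and 185 FPKM in that library, and at most 21.2 FPKM in any other MeJA library. PchiChr4G118020, whose annotated span of 641 bp is the shortest of the run, stood at 0.516, 0 and 7.22 FPKM in the MeJA 1 day libraries, 1.32, 82.8 and 12.9 FPKM in the MeJA 2 days libraries and 0, 0.0251 and 0 FPKM in the CK libraries. PchiChr4G117990 and PchiChr4G118010, with the longest spans of 60289 and 52561 bp, reached 124 and 200 FPKM in MeJA 2 days library 2. PchiChr4G117980 reached 123 FPKM there, while PchiChr4G117860 and PchiChr4G118000 reached 13.9 and 18.4 FPKM.

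Both other members of run 6 departed from the common order. PchiChr4G117940 stood at 7.85, 0.205 and 7.13 FPKM in the MeJA 1 day libraries, 2.80, 1.35 and 14.8 FPKM in the MeJA 2 days libraries and 0, 0.571 and 0 FPKM in the CK libraries. Its highest value was thus in MeJA 2 days library 3, and library 2 of that group was the lowest of the group. PchiChr4G118050, the last of the run, stayed at or below 1.61 FPKM in every library.

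The copies of run 1 were low or absent outside MeJA 2 days library 2. PchiChr4G101250, the most abundant of them, stood at 0.375, 0 and 4.25 FPKM in the MeJA 1 day libraries, 0.352, 80.2 and 10.6 FPKM in the MeJA 2 days libraries and 0 in all CK libraries. PchiChr4G101230, PchiChr4G101240 and PchiChr4G101260 had 28.4, 39.1 and 35.6 FPKM in MeJA 2 days library 2 and at most 5.04 FPKM elsewhere. All 4 had 0 counts in MeJA 1 day library 2 and in the 3 CK libraries.

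Across the chromosome 7 copies had 0 counts in all CK libraries, the 4 of run 1 and PchiChr4G117860, PchiChr4G117980 and PchiChr4G118000 of run 6. Each also had 0 counts in MeJA 1 day library 2. Set against a floor of 3 counts over the CK group, which covers counting error only, they were at least 8.67-fold (PchiChr4G117860) to at least 107-fold (PchiChr4G101250) higher in MeJA 1 day leaves. MeJA 1 day library 3 held 81.2% to 100% of their counts at that time, and all of them for PchiChr4G117860 and PchiChr4G118000, so these bounds rest on that library. In MeJA 2 days leaves they were at least 170.5-fold (PchiChr4G117860) to at least 2523-fold (PchiChr4G117980) higher, and MeJA 2 days library 2 held 86.7% to 93.2% of their counts at that time.

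The copies of run 2 and run 4, and PchiChr4G117650 of run 5, were those at 1 FPKM or more in every CK library. PchiChr4G106500 stood at 17.6, 7.19 and 18.8 FPKM in the MeJA 1 day libraries, 20.9, 20.7 and 28.5 FPKM in the MeJA 2 days libraries and 10.6, 16.3 and 17.1 FPKM in the CK libraries. Its 2 days libraries lay above all CK and all 1 day libraries, and it was the only copy with no overlap between the days, against 4.04% of all tested genes. Its log2 fold changes by edgeR were small, 0.09 (SE 0.35) for MeJA 1 day and 0.78 (SE 0.35) for MeJA 2 days, each against CK.

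PchiChr4G117310, the most abundant copy of run 4, stood at 19.3, 0.141 and 23.9 FPKM in the MeJA 1 day libraries, 20.3, 6.98 and 17.7 FPKM in the MeJA 2 days libraries and 14.3, 9.63 and 21.1 FPKM in the CK libraries. The groups overlapped, and the lowest library of each MeJA group was library 2, the reverse of runs 5 and 7 at 2 days. PchiChr4G117320 and PchiChr4G117330 had the same shape at lower levels, with 2.21 and 3.92 FPKM in MeJA 2 days library 2. In MeJA 1 day library 2 they stood at 0.0506 and 0.0177 FPKM. The run's log2 fold changes from CK were -0.16 to 0.08 over the 3 copies and both times.

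In run 3 the members differed. PchiChr4G117100 stood at 6.03, 0 and 15.3 FPKM in the MeJA 1 day libraries, 4.84, 168 and 22.4 FPKM in the MeJA 2 days libraries and 0, 0.962 and 0 FPKM in the CK libraries, the common order. PchiChr4G117210, with the shortest span of all (509 bp), stayed at or below 0.570 FPKM in every library.

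Over all copies the differences from CK were large and so was their error. All 35 copies passed the filter on low counts, which was run over all 9 libraries. With only the groups compared in the fit, 23 copies passed at 1 day and 33 at 2 days. The other copies entered those comparisons through libraries of the remaining group. Of the copies passing, 21 had a positive estimate at 1 day and 33 at 2 days, with medians of 5.06 and 7.675. With all groups in the fit, the estimate for MeJA 1 day against CK was positive for 32 copies, with a median log2 fold change of 5.29. For MeJA 2 days against CK it was positive for 35 with a median of 7.73. The medians over all 22384 genes tested were 0.03 in both comparisons. With the 7 copies lacking CK counts put at their bounds, the copies' medians were 5.07 and 7.70. Without TMM scaling the medians of all genes lay 0.13 and 0.11 lower, and the sign of PchiChr4G106500 and PchiChr4G117310 at 1 day and of PchiChr4G117320 and PchiChr4G117330 at 2 days turned.

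Among the 27 copies with more than 3 counts over the CK libraries the estimates ran from -0.75 (PchiChr4G117210) to 7.0 (PchiChr4G117870) at 1 day and from 0.03 (PchiChr4G117330) to 11.57 (PchiChr4G117880) at 2 days. PchiChr4G118020 had 1 count in all CK libraries together, and its CPM was 247.5 times that of CK at 1 day (exact 95% interval 44.0 to 9817) and 3116 times at 2 days (559 to 123126), intervals that cover counting error only. Standard errors of all copies were 0.35 to 4.14 at 1 day and 0.35 to 4.20 at 2 days. On the log2 CPM scale, counts taken relative to the library's total, the SD between libraries of a group had a median of 3.19 over the copies, with a range of 0.48 to 4.90.

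**Figure D3:**
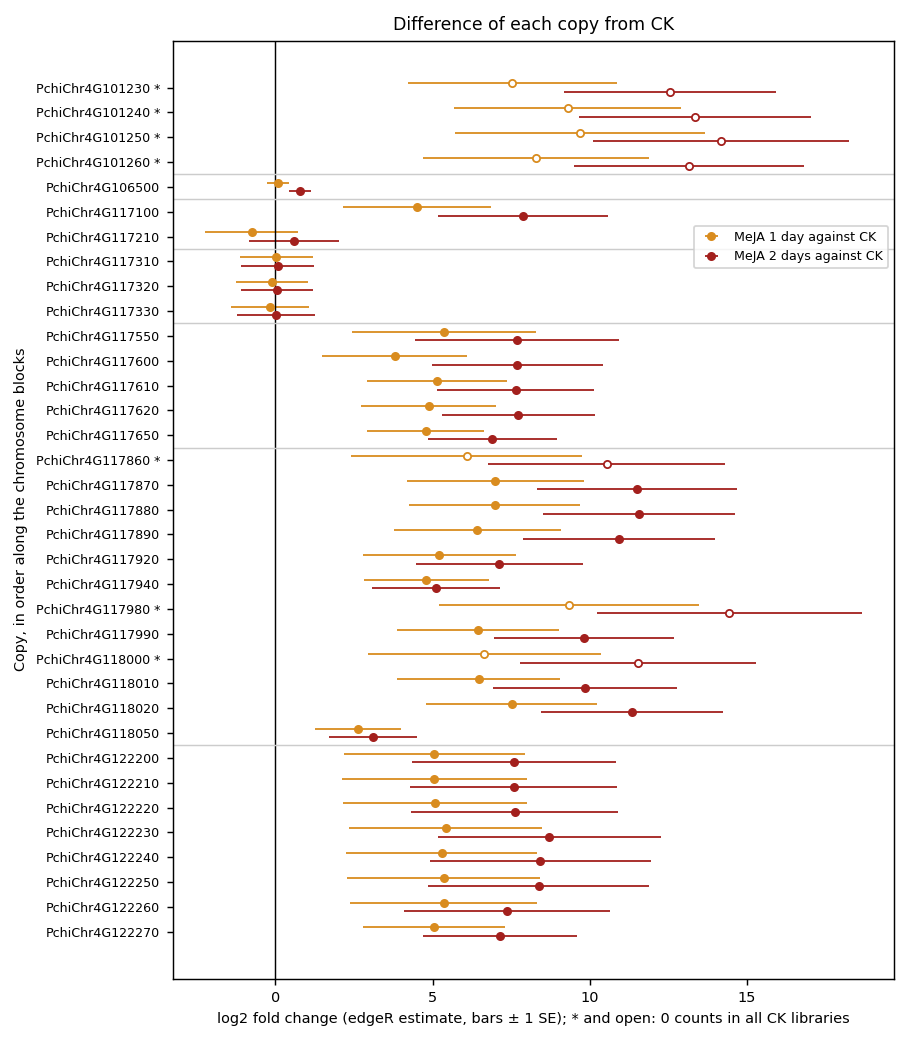
The log2 fold change of each copy against CK (edgeR estimate, bars ± 1 SE, n = 3 libraries per group), with MeJA 1 day above MeJA 2 days in each row. Copies with 0 counts in all CK libraries are starred and drawn open, since their estimate depends on the prior count; PchiChr4G106500 and the 3 copies of run 4 lie near 0, and the other estimates carry wide bars.

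At an adjusted p under 0.05 by edgeR's quasi-likelihood test, 0 of 35 copies were called higher in MeJA 1 day leaves, against 4.34% of all genes, and 0 in MeJA 2 days leaves, against 4.09%. None was called lower, against 1.00% and 0.858% of all genes. The lowest adjusted p of a copy was 0.148 at 1 day and 0.0641 at 2 days, both for PchiChr4G118020. At an unadjusted p under 0.05, 10 copies were higher at 1 day, against 15.1% of all genes, and 27 at 2 days, against 15.2%. DESeq2 called 10 copies higher at 1 day, against 10.9% of all genes, and 22 at 2 days, against 11.7%. On log2(FPKM + 1) limma tested 30 of the copies. It called a single copy, PchiChr4G117920, at both times, against 4.73% and 5.28% of all genes. No reading is drawn from these counts, since these contrasts were known when the copies were chosen.

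The calls rested on which libraries were used. Without MeJA 1 day library 2, 10 copies were called higher at 2 days, against 8.71% of all genes in that fit. Without CK library 2, PchiChr4G117920 was called at both times, against 1.46% of all genes at 1 day and 1.54% at 2 days. The medians without CK library 2 were 10.70 at 1 day and 14.20 at 2 days. Without MeJA 1 day library 3 the 1 day median was 3.14, and without MeJA 2 days library 2 the 2 days median was 6.28.

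Every MeJA 2 days library lay above every CK library for 30 copies, against 18.1% of all tested genes. The exceptions were the 3 copies of run 4, PchiChr4G117210 and PchiChr4G117860, which was at 0 in MeJA 2 days library 1 as well as in CK. In MeJA 1 day leaves, libraries 1 and 3 lay above every CK library for 29 copies, against 19.3% of all tested genes. Library 2 was at or below every CK library for 31 copies, against 50.9%, and below CK library 2 for 27, against 58.6%. Of the 31 copies, 23 were tied at 0 counts with CK libraries 1 and 3.

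Between the days, the mean FPKM was higher in MeJA 2 days than in MeJA 1 day leaves for all 35 copies, and the median log2 fold change was 3.03, against -0.03 over all genes. By edgeR 0 copies and 0.00% of all genes were called, and 0 copies were past an unadjusted p of 0.05, against 2.16% of all genes. DESeq2 called 0 copies and 0.197% of all genes, and limma called 0 of the 30 copies it tested and 0.00% of all genes. Without MeJA 2 days library 2 the median between the days was 1.31, and without MeJA 1 day library 3 it was 4.60.

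In MeJA 2 days leaves the highest means were those of PchiChr4G117550 (673 ± 693 FPKM, SD, n = 3), PchiChr4G117650 (602 ± 521 FPKM), PchiChr4G122240 (585 ± 560 FPKM), PchiChr4G122230 (549 ± 634 FPKM), PchiChr4G122250 (519 ± 576 FPKM) and PchiChr4G117920 (505 ± 460 FPKM). Each SD exceeded the gaps between these means, but the copies share their libraries. Within libraries the order of neighbouring means was not kept: PchiChr4G117550 was above PchiChr4G117650 in 2 of 3 MeJA 2 days libraries and in 2 of all 9 libraries. PchiChr4G122240 was above PchiChr4G122250 in all 6 libraries with values.

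Copies of the same run varied together more closely than copies of different runs, as a description over 9 libraries that share depth and preparation. Over all 595 pairs of copies the median Pearson correlation of log2(FPKM + 1) was 0.842, and 224 pairs were over 0.9. The 114 pairs within a run had a median of 0.978 and the 481 pairs between runs one of 0.807. Correlations were 0.966 to 0.998 within run 1, 0.966 to 0.991 within run 4, 0.947 to 0.998 within run 5 and 0.978 to 1.00 within run 7. In run 6 they went down to 0.168, and the pair of run 3 had 0.129. Near-identical copies would share reads in such pairs, and that part was not tested.

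Set against the mean of the other copies, 22 of 35 copies had a correlation over 0.9. The lowest was 0.0994 for PchiChr4G117210, and the 3 copies of run 4 lay between 0.189 and 0.260.

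**Figure D4:**
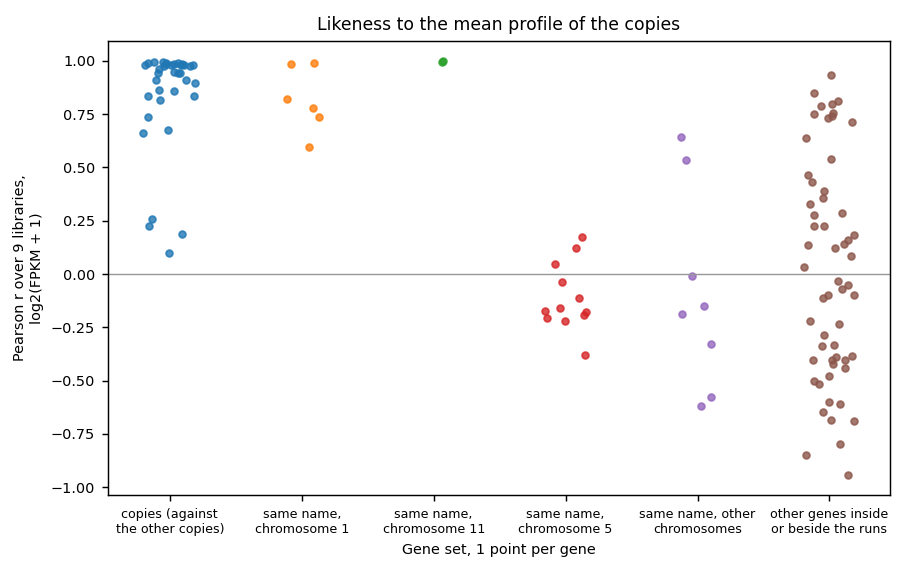
Pearson correlation over the 9 libraries of log2(FPKM + 1) with the mean profile of the copies, 1 point per gene, for the copies themselves (against the mean of the other copies), for genes of the same name on other chromosomes and for the other genes inside or beside the runs. Most copies and both genes of chromosome 11 lie near the top, the 12 genes of chromosome 5 lie between -0.378 and 0.173, and the neighbours have a median of -0.03.

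Genes of the same name on other chromosomes did not all share this pattern. On chromosome 11, PchiChr11G298410 and PchiChr11G298420 correlated with the mean of the chromosome 4 copies at 0.996 and 0.997. On chromosome 1 all 6 genes were highest in MeJA 2 days library 2, with correlations of 0.597 to 0.989. The 12 genes of chromosome 5 had correlations of -0.378 to 0.173, and none was highest in MeJA 2 days library 2. Those 12 summed to 551, 595 and 714 FPKM in the MeJA 1 day libraries, 932, 835 and 844 FPKM in the MeJA 2 days libraries and 1230, 472 and 1040 FPKM in the CK libraries.

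Of the 25 such genes tested off chromosome 4, 1 was called in any comparison. Over all tested genes 4.34% were called higher at 1 day, 4.09% at 2 days and 0.00% between the days. PchiChr1G004590 stood at 31.3, 228 and 147 FPKM in the MeJA 1 day libraries, 70.0, 892 and 213 FPKM in the MeJA 2 days libraries and 0.588, 6.16 and 5.63 FPKM in the CK libraries. It rose at 2 days with a log2 fold change of 6.77 (edgeR adjusted p = 0.0437), and unlike most chromosome 4 copies it was high in MeJA 1 day library 2.

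Genes of other names inside or beside the runs mostly did not share the pattern. There were 57 of them, 15 inside runs 3, 5 and 6 and 42 beside runs, and 48 were tested. Their median log2 fold changes were 0.10 at 1 day and 0.02 at 2 days against CK. By edgeR 0 were called higher at 1 day, against 4.34% of all genes, and 3 at 2 days, against 4.09%. Those 3 were PchiChr4G117580 by 2.48 (adjusted p = 0.0200), PchiChr4G117950 by 2.95 (adjusted p = 0.0341) and PchiChr4G117960, named as the transcription factor AS1, by 3.18 (adjusted p = 0.0481). None fell, against 1.00% of all genes at 1 day and 0.858% at 2 days.

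A single neighbour correlated with the mean of the copies above 0.9. PchiChr4G117930, named as a caffeic acid O-methyltransferase, an enzyme of lignin synthesis, lies inside run 6 between PchiChr4G117920 and PchiChr4G117940 (block 1000000001, 180844285 to 180846739). It stood at 233, 4.03 and 681 FPKM in the MeJA 1 day libraries, 164, 1801 and 981 FPKM in the MeJA 2 days libraries and 0.0426, 34.5 and 0.0389 FPKM in the CK libraries, with a correlation of 0.935. These are the order and the near absence in CK libraries 1 and 3 seen in the copies. PchiChr4G117530 beside run 5, named as a phenylpropanoyltransferase of taxane side-chain attachment, had 15.3, 34.4 and 18.6 FPKM in the MeJA 1 day libraries, 11.1, 67.2 and 49.3 FPKM in the MeJA 2 days libraries and 0.134, 2.39 and 0.0342 FPKM in the CK libraries.

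In a search of 16610 described genes averaging 1 FPKM or more, those most like the mean profile of the copies were PchiChr4G123970 (named as taxadienol acetyltransferase, which adds the first acetyl group), the epoxidase-named PchiChr11G298420 and PchiChr1G004050 (named as unknown), each with a correlation of 0.997 over 9 libraries. PchiChr11G298450 and PchiChr11G298440, both named as taxadiene 5-alpha hydroxylase, the P450 of the first oxidation, followed at 0.996. Of these, PchiChr11G298440 stood at 19.3, 0 and 137 FPKM in the MeJA 1 day libraries, 23.8, 896 and 164 FPKM in the MeJA 2 days libraries and 0, 2.93 and 0 FPKM in the CK libraries.

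The other steps of the pathway, taken from lists of description terms, had high values in MeJA 2 days library 2 as well. Of 5 taxadiene synthase genes, none was called at either time, against 4.34% of all genes higher at 1 day and 4.09% at 2 days. Their median log2 fold changes were 4.79 at 1 day and 9.02 at 2 days against CK. The most abundant, PchiChr11G299870, stood at 161, 9.42 and 422 FPKM in the MeJA 1 day libraries, 127, 1758 and 643 FPKM in the MeJA 2 days libraries and 0, 22.3 and 0 FPKM in the CK libraries. Of 53 taxane P450 genes tested, 11 rose at 1 day and 13 at 2 days, against the same 4.34% and 4.09% of all genes. Their median log2 fold changes were 4.59 and 7.26. The 67 taxane P450 genes of the table summed to 1551, 1034 and 4245 FPKM in the MeJA 1 day libraries. In the CK libraries they summed to 58.6, 249 and 68.7 FPKM, so MeJA 1 day library 2 lay above each CK library for this sum. Their most abundant gene was PchiChr11G297900, named as the 13-alpha-hydroxylase, with 287, 0.463 and 640 FPKM in the MeJA 1 day libraries, 240, 2974 and 895 FPKM in the MeJA 2 days libraries and 0, 40.2 and 0 FPKM in the CK libraries.

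Of 23 taxane acyltransferases tested, 2 rose at 1 day and 3 at 2 days, against 4.34% and 4.09% of all genes, with medians of 4.64 and 7.21. The 27 acyltransferases of the table summed to 542, 229 and 1337 FPKM in the MeJA 1 day libraries. In the CK libraries they summed to 11.85, 82.3 and 11.8 FPKM, again below MeJA 1 day library 2. Their most abundant gene was PchiChr1G006190, named as the N-benzoyltransferase that acts on debenzoyl deoxytaxol, at 78.2, 0.175 and 209 FPKM in the MeJA 1 day libraries, 80.9, 1067 and 363 FPKM in the MeJA 2 days libraries and 0, 12.0 and 0 FPKM in the CK libraries. The only gene named as phenylalanine aminomutase, which makes the beta-phenylalanine of the side chain, was PchiChr5G152450, and it was not called. Of 6 geranylgeranyl diphosphate synthases none was called at 1 day and 2 rose at 2 days, against the same shares of all genes, with medians of 3.09 and 4.92. None of the genes on these lists fell, against 1.00% of all genes at 1 day and 0.858% at 2 days. Between the days none was called, against 0.00% of all genes.

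Summed levels of hormone response genes were not low in MeJA 1 day library 2, but a single gene gave most of the signalling sum there. Of 9 jasmonate signalling genes 2 rose at 1 day and 3 at 2 days, against 4.34% and 4.09% of all genes. Their median log2 fold changes were 0.83 and 1.39. Their levels summed to 223, 850 and 397 FPKM in the MeJA 1 day libraries, 316, 1013 and 547 FPKM in the MeJA 2 days libraries and 92.6, 94.7 and 84.9 FPKM in the CK libraries, with MeJA 2 days library 2 highest as for the copies and MeJA 1 day library 2 next. Of the 850 FPKM in MeJA 1 day library 2, PchiChr3G086840 alone gave 728, so that library's place in this order rests on that gene. Of 8 jasmonate biosynthesis genes tested 2 rose at 1 day and 1 at 2 days, against 4.34% and 4.09% of all genes, with medians of 4.91 and 5.40. The 12 biosynthesis genes of the table summed to 268, 367.5 and 202 FPKM in the MeJA 1 day libraries, 234.5, 874 and 158 FPKM in the MeJA 2 days libraries and 119, 138 and 88.9 FPKM in the CK libraries, and their most abundant, PchiChr7G216050, stood at 76.6 to 163 FPKM in every library. PchiChr3G086840, named as TIFY 9, of the family of repressors that jasmonate both degrades and induces, stood at 95.4, 728 and 192 FPKM in the MeJA 1 day libraries, 148, 626 and 303 FPKM in the MeJA 2 days libraries and 7.67, 9.28 and 1.87 FPKM in the CK libraries. It rose with log2 fold changes of 5.96 (SE 1.15, edgeR adjusted p = 0.0283) at 1 day and 6.03 (SE 1.15, adjusted p = 0.0281) at 2 days. MeJA 1 day library 2, in which 24 epoxidase-named copies were at 0, was thus its highest library. The geranylgeranyl diphosphate synthase PchiChr9G269010 was likewise not low there, with 37.5, 41.2 and 86.1 FPKM in the MeJA 1 day libraries, 41.4, 424 and 149 FPKM in the MeJA 2 days libraries and 4.90, 10.1 and 4.85 FPKM in the CK libraries, and it rose at 2 days (log2 fold change 5.15, SE 0.94, adjusted p = 0.0246). PchiChr9G269040, named as the same enzyme, was near 0 in MeJA 1 day library 2. It had 4.3, 0.10 and 16.5 FPKM in the MeJA 1 day libraries and 0.17, 1.53 and 0.47 FPKM in the CK libraries.

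Genes with description terms of other tissues were measured beside the copies, though such a term does not place a gene in that tissue. Over all tested genes 4.34% were called higher at 1 day and 4.09% at 2 days, and 1.00% and 0.858% lower. The 47 genes with reproductive and seed terms (vicilin, legumin, late embryogenesis or pollen) summed to 1179, 3028 and 1146 FPKM in the MeJA 1 day libraries, 2615, 1101 and 935 FPKM in the MeJA 2 days libraries and 574, 410 and 396 FPKM in the CK libraries. Of the 39 tested, 12 were higher at 1 day and 11 higher and 1 lower at 2 days. The most abundant, PchiChr12G334400, named as a pollen allergen, alone gave 746 FPKM in MeJA 1 day library 2. The 32 wood and secondary wall genes summed to 99.0 to 202 FPKM in MeJA libraries and 36.1 to 41.5 FPKM in CK libraries, with 2 of the 20 tested genes higher at each time. The 7 epidermis and cuticle genes summed to 109.5 to 164 FPKM in MeJA libraries and 142 to 237 FPKM in CK libraries, with 1 gene higher at each time. The 4 guard cell genes summed to 5.71 to 15 FPKM in MeJA libraries and 10.8 to 14.1 FPKM in CK libraries, and of these and the 8 green leaf genes tested none was called. Neither the wood nor the reproductive sums had the order of libraries seen in the copies, and the part of tissue makeup in the levels of the copies was not tested.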

How the data were processed

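Reads of 9 leaf libraries were processed with fastp, HISAT2 and HTSeq, per the submitters' processing notes, whose versions, settings and genome build the sources used here do not give. Per the file headers, the authors deposited estimated counts and FPKM for each library. When 220 low counts were divided by their FPKM, 100% exceeded a gene's proportional value by 0 to 1 (tolerance 0.05), so the deposited counts are estimates rounded up, and they were used as they stood. HTSeq alone gives whole counts, and how the estimates arose was not resolved. The authors' FPKM served for levels.

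Genes were tested with edgeR 4.0.16 under R 4.3.3, by its two-sided quasi-likelihood F test with TMM scaling, after filterByExpr at a minimum count of 10. All 9 libraries entered one model without covariates. Benjamini-Hochberg adjustment ran over 22384 genes, with a threshold of 0.05. Standard errors are the log2 fold change divided by the square root of F. DESeq2 1.42.0 and limma 3.58.1 (genes at 1 FPKM or more in 3 libraries) were alternatives. Only the edgeR fit, for MeJA 1 day against CK, was run on simulated counts. Those had the same spread for every gene, so the run does not cover genes as variable between libraries as the copies. Groups came from the treatment labels and library numbers from the titles. Same-numbered libraries deviated together in 4 of 9 pairs (correlations of -0.123 to 0.307, more than 0.1 in those 4). Libraries of different number had correlations of -0.333 to 0.151. With 3 libraries per group this check cannot tell whether the numbers pair the libraries. No label gives a pairing, so none was modelled in the main fit, and a fit with the number as a block is given below.

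The members and lists were chosen with earlier results of these data known, and the 5 Mb gap that bounds a run was chosen after the positions were seen. Named genes were all copies, the same name elsewhere, the 3 nearest genes on each side of a run and those between copies, the 5 genes of most similar profile, and the most abundant gene of each pathway list; few of the neighbours are printed, chosen after their values were seen. Depth of 48893949 to 58703021 counts per library sets the counting precision. No sequences were used.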

Additional observations from a re-analysis of the deposited data

How the results depend on the processing

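The number of called copies depended on the test and on the libraries. DESeq2 called 10 copies at 1 day and 22 at 2 days against CK, with 2440 higher and 1302 lower genes in all at 1 day, 2610 and 1402 at 2 days, and 44 and 28 between the days. With only the groups compared in the fit, 23 copies were tested at 1 day and 33 at 2 days. Of these, 0 were called at 1 day and 7 at 2 days (2.07% and 6.43% of all genes). The totals were 446 higher and 88 lower at 1 day and 1402 and 543 at 2 days. On log2(FPKM + 1) limma called 1 copy at each time, 467 lower genes at 1 day and 430 at 2 days. Its median at 1 day, over the 30 copies it tested, was 1.85. With 0.1 in place of 1 it called 1 copy at 2 days, 423 lower genes at 1 day and 349 at 2 days. With the library number as a replicate block 0 copies were called in each comparison, the totals at 1 day were 646 higher and 101 lower, and the copies' medians were 8.18 at 1 day, 9.23 at 2 days and 1.21 between the days. Omitting TMM scaling or the low-count filter left 0 copies called.

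Leaving out 1 library at a time gave 0 to 1 called copies at 1 day (medians 3.14 to 10.70; 119 to 990 genes higher and 12 to 224 lower in all), 0 to 10 at 2 days (medians 6.28 to 14.20; 42 to 1981 higher and 6 to 912 lower) and 0 between the days (medians 1.31 to 4.60). An arm left with 2 libraries shared the spread of the whole fit. Leaving out CK library 2 with MeJA 1 day library 2, chosen after seeing the data, gave 2 copies at 1 day and 14 at 2 days, beside 719 and 1220 higher genes in all (3.18% and 5.39%), 50 lower genes at 1 day, and medians of 11.31 and 14.22. Leaving out CK library 2 with MeJA 2 days library 2, likewise chosen, gave 0 copies, 193 higher and 14 lower genes at 1 day, 54 and 3 at 2 days, and medians of 10.73 and 12.15. The cause of these shifts was not tested. Over all settings 6 copies changed sign in some comparison: PchiChr4G106500, the 3 copies of run 4, PchiChr4G117940 and PchiChr4G118050. Without MeJA 1 day library 3, PchiChr4G117860 and PchiChr4G118000 had no counts in either group at 1 day and no fold. The median correlation between copies was 0.868 on log2(FPKM + 0.1) and 0.887 on log2 CPM, against 0.842. Of the copies, 25 had 0 counts in CK libraries 1 and 3. Where these had counts in CK library 2, their folds against CK rest on that library. For the 7 copies with 0 counts in all CK libraries, depth limits the folds. Reads that may be shared limit the value of single copies.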
